A study of Homo sapiens with 18 samples.

Results

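Core pluripotency genes were followed through the differentiation of human embryonic stem cells into insulin-producing cells. The set was chosen by name and holds 10 of the 57808 genes counted: POU5F1, NANOG, SOX2, PRDM14, UTF1, TDGF1, FOXD3, LIN28A, LIN28B and DPPA4. All 10 were found in the count table. The cells were MEL1 INSGFP/W, an established embryonic stem cell line in which GFP is placed in the insulin gene, so that GFP marks insulin-producing cells. There were 18 libraries in 9 groups of 2. RNA-seq covered pluripotent cells (hPSC) and definitive endoderm (DE), both of genotype RPL22-FLAG, and stem-cell-derived beta-like cells (sBC) from a stirred suspension culture sorted as GFP+ or GFP-, whose labels give the sort as the only genotype. RPL22-FLAG is a ribosomal protein with an epitope tag by which ribosomes can be pulled down. Ribosome footprints, the RNA stretches that ribosomes shield from RNase, were sequenced in total lysate (Ribo) from hPSC and DE of genotype RPL22-FLAG. Footprints after a pull-down with anti-FLAG beads (IP-Ribo) came from hPSC and DE of the same genotype and from GFP+ sBC that had received RPL22-FLAG by lentivirus. The promoter of the lentiviral transgene and the days of culture are not given in the sources used here. Nothing in the labels states whether the paired libraries in a group were grown as separate cultures. P-values therefore measure only the spread between libraries, which may be technical.

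Pluripotency rests on a small circuit of transcription factors. OCT4 (encoded by POU5F1) and SOX2 bind DNA side by side at a composite element and, with NANOG, hold each other and many other genes active. PRDM14 and FOXD3 are DNA-binding regulators of the same network, and UTF1 and DPPA4 are chromatin proteins of pluripotent cells. TDGF1 (CRIPTO) is a cell-surface co-receptor for Nodal, the signal that both sustains human pluripotent cells and drives them into endoderm. LIN28A and LIN28B are RNA-binding proteins that block the maturation of let-7 microRNAs.

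The promoters of 3 members are printed to show which carry, close to their start, the letters that OCT4 and SOX2 read. They are RefSeq windows on GRCh38.p14, from 250 bases before to 50 bases after the annotated start, written 5′ to 3′ on the gene's strand. Capitals mark a match to the octamer core (ATGCAAA, either strand), to the SOX core (ACAATG, either strand), or to the composite TTTGCATNACAATG, which contains both. NANOG and SOX2 are shown because they hold the octamer core, and TDGF1 because its RNA rose in DE.
NANOG chr12:7789152-7789451, plus strand: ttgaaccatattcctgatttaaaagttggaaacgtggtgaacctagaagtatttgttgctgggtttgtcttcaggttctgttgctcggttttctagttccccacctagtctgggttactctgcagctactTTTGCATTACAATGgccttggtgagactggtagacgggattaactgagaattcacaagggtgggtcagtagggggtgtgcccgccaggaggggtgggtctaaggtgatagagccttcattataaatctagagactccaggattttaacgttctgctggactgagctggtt
SOX2 chr3:181711675-181711974, plus strand: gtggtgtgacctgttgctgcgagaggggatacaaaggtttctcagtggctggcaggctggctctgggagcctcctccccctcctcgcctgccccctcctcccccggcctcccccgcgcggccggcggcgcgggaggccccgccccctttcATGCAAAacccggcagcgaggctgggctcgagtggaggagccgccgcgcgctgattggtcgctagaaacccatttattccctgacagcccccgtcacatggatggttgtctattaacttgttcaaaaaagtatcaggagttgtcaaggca
TDGF1 chr3:46574285-46574584, plus strand: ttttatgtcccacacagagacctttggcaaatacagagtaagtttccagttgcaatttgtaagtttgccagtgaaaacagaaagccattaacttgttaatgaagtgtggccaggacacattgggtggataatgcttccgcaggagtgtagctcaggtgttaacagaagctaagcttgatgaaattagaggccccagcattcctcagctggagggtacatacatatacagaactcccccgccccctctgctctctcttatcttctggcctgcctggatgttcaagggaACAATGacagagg
In the NANOG window the composite TTTGCATTACAATG began at position -120, where the annotated start is 1 and no base is numbered 0. Only 3 of 35116 human promoters in the same table (0.00854%) held the composite. The SOX2 window held the octamer core ATGCAAA at -100, as did 4.46% of all promoters on either strand. TDGF1 held the SOX core at position 38 of this start and at -138 of a second annotated start, and LIN28B at -140 of 1 of its 2 starts, against 10.8% of all promoters. The windows of UTF1, FOXD3 and DPPA4 held no match. In all, 9 windows of 7 members were searched. A match is a description of letters and not of a bound site.

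Depth ran from 6.61 M to 92.53 M counts per library. The 10 genes together took 0.7097% and 0.7386% of all counts in the hPSC RNA libraries, 0.2814% and 0.2765% in DE RNA, and 0.0061% to 0.0104% in the 4 sBC RNA libraries. Levels are given in CPM, the count scaled to a fixed total per library, normalised by TMM within each assay, so a level in RNA and a level in footprints are not on 1 scale. The 9 endoderm markers summed to 4251 to 4477 CPM in DE RNA and 23.2 to 24.4 CPM in hPSC RNA. The 11 beta and endocrine markers summed to 45458 to 52183 CPM in GFP+ RNA, 26016 to 41743 CPM in GFP- RNA and 13.5 to 15.5 CPM in hPSC RNA. Most of the GFP+ sum was GCG (glucagon) and CHGA, at means of 25472 and 16511 CPM. In GFP- RNA these had means of 13575 and 17914 CPM. The endoderm factor SOX17 was at 469 and 471 CPM in DE RNA and at 1.54 and 1.69 in hPSC RNA. Insulin (INS) had 0 counts in all hPSC and DE libraries and was at 4397 and 4828 CPM in GFP+ sBC RNA, but also at 981 and 1702 CPM in GFP- sBC RNA. The 2 GFP+ sBC IP-Ribo libraries went against their label in part. CFTR, a chloride channel of duct cells, was at 323 ± 97.2 CPM (SD, n = 2) there, at 8.54 and 8.79 CPM in GFP+ RNA and at 399 and 829 CPM in GFP- RNA. NES, a filament protein of progenitors, was at 32.3 and 40.1 CPM there against 2.53 and 3.44 CPM in GFP+ RNA. Of the 6 progenitor and duct markers 5 had counts there, with a summed level of 867 to 1065 CPM, and PTF1A was at 0. Every value from those libraries below is to be read beside the GFP+ RNA value, which does not rest on them. In the first DE Ribo library a single gene took 25.1% of all counts, against 4.5% in the other.

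In definitive endoderm, 9 of the 10 genes had lower RNA than in hPSC and 1, TDGF1, had higher RNA. All 10 passed the test (edgeR's quasi-likelihood test, with p adjusted by Benjamini-Hochberg and a threshold of 0.05). Of all 20634 genes tested 75.6% passed, 36.8% lower and 38.7% higher, so passing sets no gene apart here and the size of the change carries the description. The median log2 fold change of the 10 genes was -5.59, against 0.01 over all genes tested. The fall was steep in the transcription factors, moderate in DPPA4 and shallow in the 2 LIN28 genes.

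**Figure D1:**
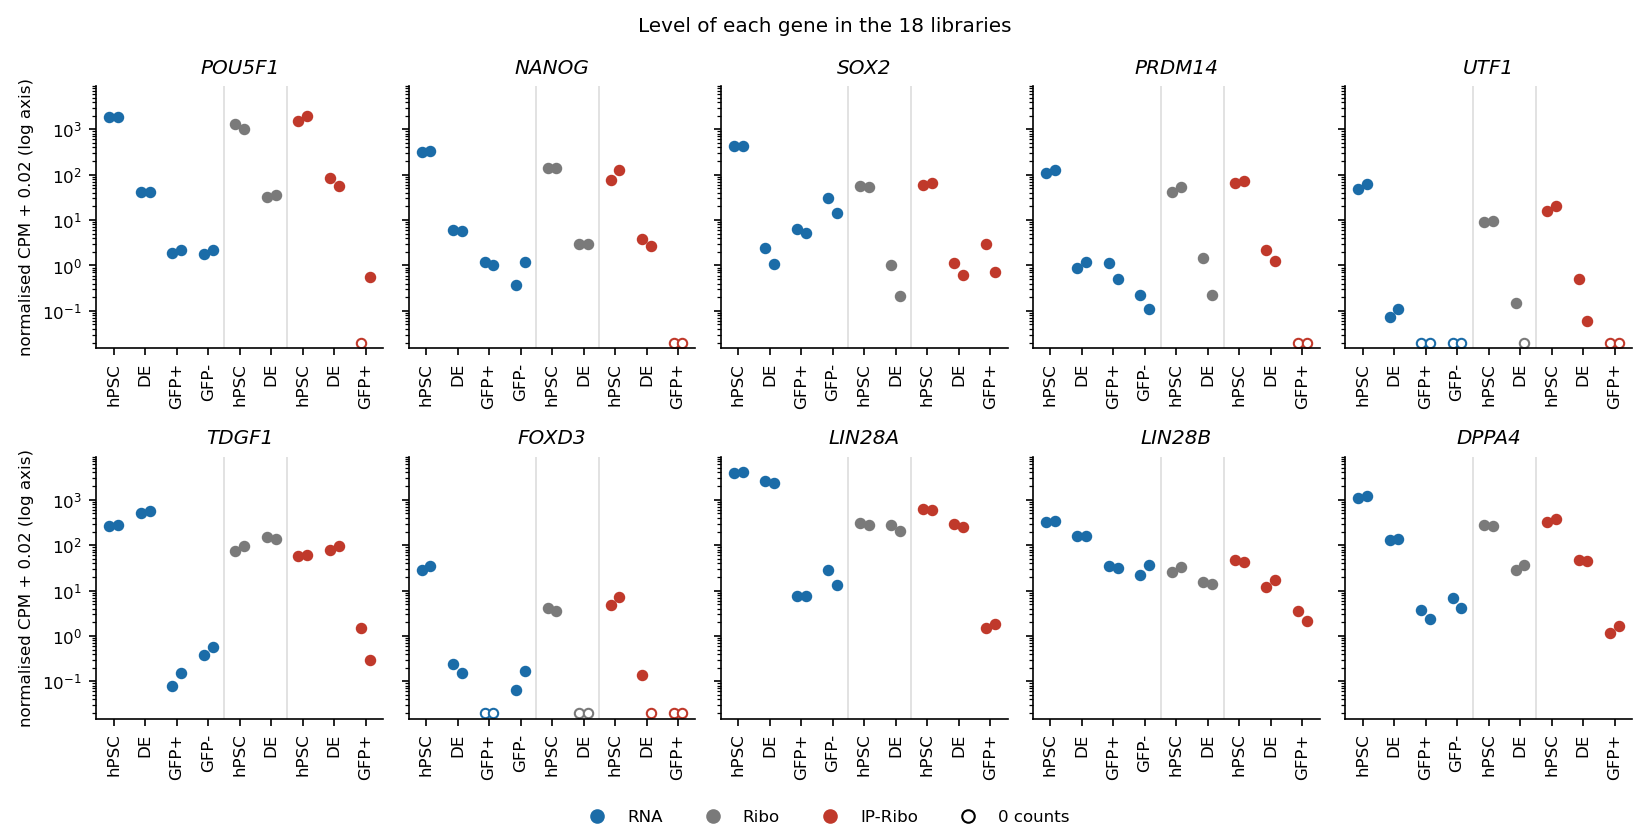
Level of each of the 10 genes in each of the 18 libraries (vertical log axis: TMM-normalised CPM plus 0.02; horizontal axis: groups of 2 libraries, RNA in blue, total footprints in grey, IP footprints in red; open points are libraries with 0 counts). TDGF1 is the gene whose DE points (501 and 579 CPM in RNA) lie above its hPSC points (260 and 282), and LIN28B is the gene that keeps 21.8 to 36.3 CPM in all 4 sBC RNA libraries.

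Among the core factors, POU5F1 (chromosome 6, 31164337 to 31170682, GRCh38) was at 1836 and 1868 CPM in hPSC RNA and at 42.4 and 40.9 CPM in DE RNA. The groups lay far apart, and 2.25% of the hPSC level was left (log2 fold change -5.42 ± 0.05 SE, adjusted p = 5.04e-13). NANOG (chromosome 12, 7789402 to 7799146) was at 323 and 339 CPM in hPSC and at 6.05 and 5.72 in DE, which left 1.78% (-5.76 ± 0.06, adjusted p = 5.04e-13). SOX2 (chromosome 3, 181711925 to 181714436), a partner of OCT4 in pluripotent cells that is also a factor of neural and foregut cells, was at 433 and 435 CPM in hPSC. In DE it was at 2.43 and 1.06 CPM, so that its 2 DE libraries differed more than those of POU5F1 or NANOG. SOX2 fell further than either of them, to 0.403% of the hPSC level (-7.90 ± 0.33, adjusted p = 0.000573).

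PRDM14, UTF1 and FOXD3 also fell to under 1% of their hPSC RNA level. PRDM14 (chromosome 8, 70051651 to 70071252) was at 111 and 125 CPM in hPSC RNA and at 0.864 and 1.17 in DE (-6.81 ± 0.11, adjusted p = 3.45e-11). UTF1 (chromosome 10, 133230217 to 133231558), which keeps poised genes from being switched on too far, had the largest fall of the 10. It went from 47.8 and 62.3 CPM to 0.0523 and 0.0916 CPM, which rests on 11 counts over both DE libraries (-9.49 ± 0.27, adjusted p = 3.39e-07). FOXD3 (chromosome 1, 63322567 to 63325128), a forkhead factor of pluripotent cells and neural crest, was at 28.1 and 34.3 CPM and fell to 0.222 and 0.131 CPM (-7.40 ± 0.19, adjusted p = 8.14e-10). DPPA4 (chromosome 3, 109326144 to 109339636) fell much less, from 1121 and 1210 CPM to 127 and 136 CPM, and kept 11.3% of its hPSC level (-3.10 ± 0.06, adjusted p = 1.61e-11). In none of these 4 genes did the libraries of hPSC and DE overlap. The share of all genes without overlap was not counted, so this sets none of them apart.

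TDGF1 (chromosome 3, 46574535 to 46582457) went the other way. It was at 260 and 282 CPM in hPSC RNA and at 501 and 579 CPM in DE, both above either hPSC library (1.05 ± 0.08, adjusted p = 4.96e-06). LIN28A (chromosome 1, 26410817 to 26429728) stayed abundant, at 3838 and 4195 CPM in hPSC and 2565 and 2393 CPM in DE (-0.64 ± 0.05, adjusted p = 9.77e-07). When the spread was estimated over all 8 RNA libraries, this was the 1 call of the 10 that did not pass (-0.70, adjusted p = 0.136). LIN28B (chromosome 6, 104937026 to 105083332) went from 332 and 339 CPM to 161 and 157 CPM (-1.03 ± 0.05, adjusted p = 6.45e-09). In bulk samples, fewer cells that hold an RNA and less of it in each cell cannot be told apart.

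Footprints of most members were lower in DE as well, with wider errors than in RNA. In IP-Ribo 9 of the 10 were lower in DE, where 22.3% of 16018 genes passed (12.5% lower). In Ribo 8 were lower and 1 higher, where 34.1% of 15454 genes passed (16.9% lower, 17.2% higher). POU5F1 footprints were at 1518 and 1926 CPM in hPSC IP-Ribo and at 82.7 and 55.8 in DE IP-Ribo (-4.64 ± 0.49, adjusted p = 0.00199). In Ribo they were at 1320 and 1012 CPM and at 32.6 and 36.1 CPM (-5.08 ± 0.25, adjusted p = 0.000767). SOX2 footprints stood at 59.9 and 67.1 CPM against 1.10 and 0.583 CPM in IP-Ribo (-6.39 ± 0.61, adjusted p = 0.00143), which rests on 24 counts in DE. In both assays the footprint libraries of DE lay below those of hPSC for both factors, and the share of all genes that do so was not counted. The Ribo calls leaned on the hPSC libraries, as did the calls over all genes: without either of these libraries far fewer of both passed. Leaving out a library kept the Ribo change of POU5F1 between -5.28 and -4.90 and that of SOX2 between -8.04 and -5.76. In IP-Ribo UTF1 no longer passed without either hPSC library (adjusted p = 0.0516 and 0.0538), nor LIN28B without the first (adjusted p = 0.0661).

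TDGF1 and LIN28A were the members whose footprints came closest to no change. TDGF1 footprints were at 73.5 and 98.2 CPM in hPSC Ribo and at 149 and 138 CPM in DE Ribo, with no overlap (0.74 ± 0.20, adjusted p = 0.0364). This call was lost without either hPSC library (0.53, adjusted p = 0.234, and 0.95, adjusted p = 0.125) and without the first DE library (0.69, adjusted p = 0.064). In IP-Ribo TDGF1 was at 56.5 and 61.4 CPM against 79.7 and 98.2 CPM and did not pass (0.59 ± 0.37, adjusted p = 0.289). LIN28A was at 310 and 275 CPM in hPSC Ribo and at 285 and 203 CPM in DE Ribo, where the libraries overlap (-0.26 ± 0.22, adjusted p = 0.394). In IP-Ribo it was at 619 and 610 CPM against 289 and 257 CPM and fell (-1.17 ± 0.21, adjusted p = 0.00895), a call lost without either hPSC library (adjusted p = 0.0617 and 0.0553). DPPA4 kept 12.1% of its hPSC level in Ribo and 13.3% in IP-Ribo, next to 11.3% in RNA.

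**Figure D2:**
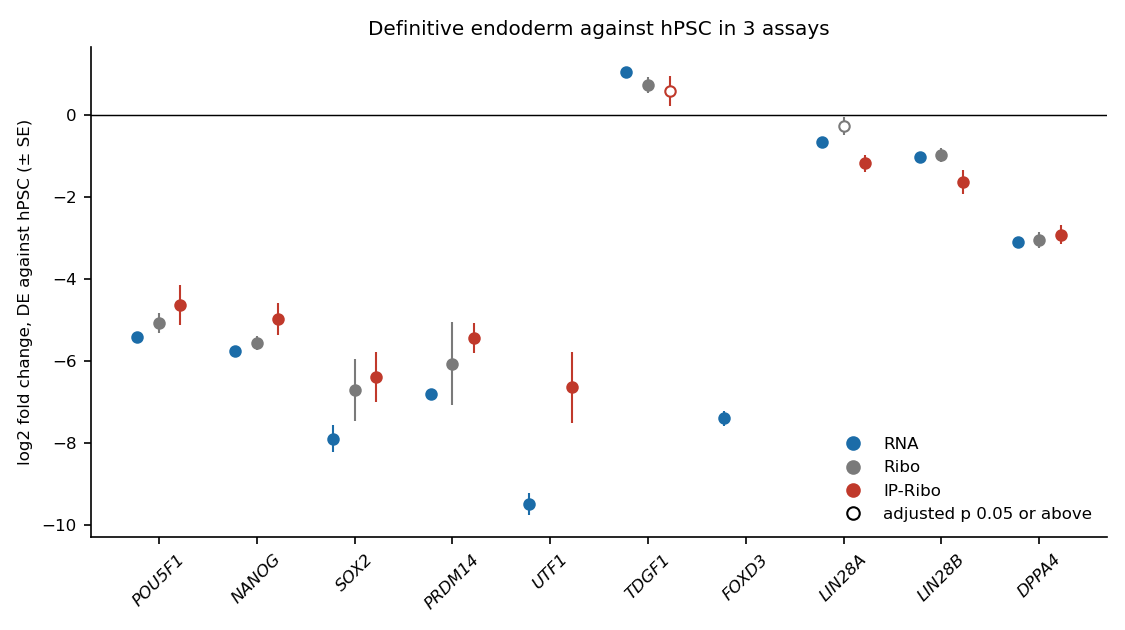
Log2 fold change of each gene, DE against hPSC, in RNA (blue), total footprints (grey) and IP footprints (red), with bars of 1 standard error from the fit. Filled points passed an adjusted p of 0.05, and values resting on 3 or fewer counts in DE (UTF1 in Ribo, FOXD3 in both footprint assays) are left out. TDGF1 lies above 0 in all 3 assays and is open in IP-Ribo.

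Whether footprints moved differently from RNA was tested as a change in translational efficiency (TE), the interaction of assay and stage in 1 fit over both kinds of library. None of the 10 genes passed in DE against hPSC, with IP-Ribo or with Ribo, where 0.167% of 22210 and 0.314% of 21681 genes passed. An unadjusted p was under 0.05 for 5 of the 10 with IP-Ribo, as for 10.6% of all genes, and for 3 with Ribo, as for 15.5% of all genes. With DESeq2, which called 752 and 1434 of all genes, also none of the 10 passed in either. The 5 with IP-Ribo were POU5F1 (1.12 ± 0.39, adjusted p = 0.355), NANOG (1.09 ± 0.37, adjusted p = 0.35), SOX2 (1.81 ± 0.72, adjusted p = 0.421), PRDM14 (1.66 ± 0.47, adjusted p = 0.276) and UTF1 (2.95 ± 1.11, adjusted p = 0.408). All 5 values lie above the median of all genes, 0.16, which moved to -0.06 with RLE size factors, while the genes called went from 22 higher and 15 lower to 15 higher and 19 lower. The same fit gave LIN28A -0.18 ± 0.20 and LIN28B -0.25 ± 0.26. A p that misses the threshold does not show that RNA and footprints fell alike.

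In hPSC, the ratio of footprints to RNA was computed for each member. On the log2 scale, and with the median gene at -0.48 in IP-Ribo, POU5F1 stood at 1.08 ± 0.28 and PRDM14 at 0.40 ± 0.27, above that median. LIN28B stood at -1.73 ± 0.19, SOX2 at -1.59 ± 0.37 and LIN28A at -1.53 ± 0.14, below it. In Ribo, with the median gene at -0.29, POU5F1 was at 0.98 ± 0.14 and LIN28A at -2.13 ± 0.17. These ratios were not tested, and they take in untranslated exons and reads shared with copies. The pull-down itself was compared with total footprints in each stage. None of the 10 passed in hPSC (1.15% of 16679 genes passed) or in DE (0.863%). An unadjusted p was under 0.05 for 3 members in hPSC (NANOG, TDGF1 and LIN28A), as for 14.1% of all genes, and for 2 in DE (POU5F1 and TDGF1), as for 19.6% of all genes. TDGF1 had the lowest values, -1.0 ± 0.21 in hPSC (adjusted p = 0.0871) and -0.98 ± 0.21 in DE (adjusted p = 0.11). DESeq2 called TDGF1 in both stages (adjusted p = 0.00125 and 0.000956). It called 735 and 1035 of all genes there, against 192 and 144 with edgeR.

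Near-identical copies held a large and uneven part of the counts of 3 members. NANOG shares its sequence with the pseudogenes NANOGP1 and NANOGP8. In hPSC RNA 16.6% and 16.7% of the family's counts lay on these copies, but 60.4% and 66.4% did in hPSC Ribo and 85% and 71.3% in hPSC IP-Ribo. TDGF1 copies took 0.2% in hPSC and DE RNA and 16.7% to 36.6% in the footprints of these stages. The footprint level of NANOG as deposited was therefore lower than that of its family: its log2 ratio of footprints to RNA in hPSC IP-Ribo was -0.52 ± 0.23 alone and 1.44 ± 0.17 with the copies added, a sum chosen after seeing the data. For TDGF1 the same sum moved the ratio from -1.02 ± 0.24 to -0.58 ± 0.33.

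**Figure D3:**
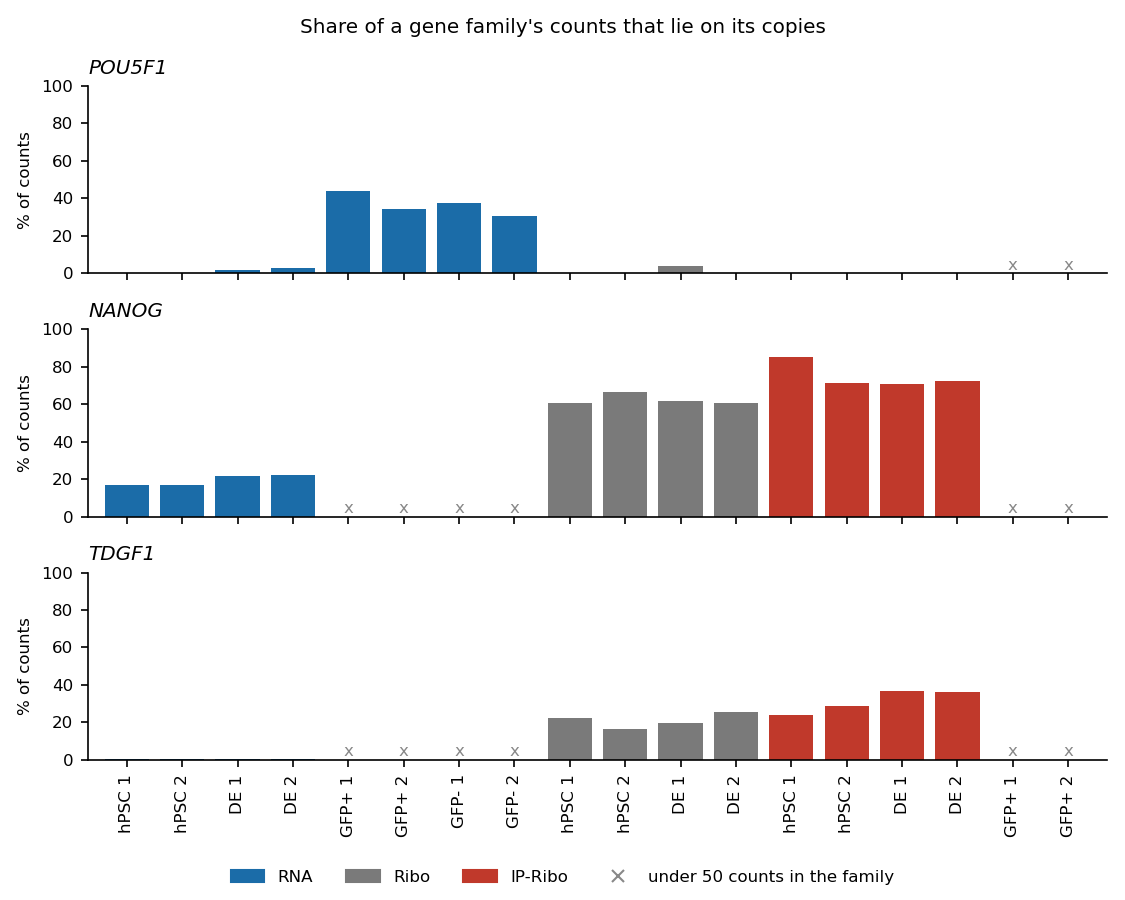
Share of the counts of the POU5F1, NANOG and TDGF1 families that lies on the copies, per library (vertical axis in % of the family's counts; blue RNA, grey Ribo, red IP-Ribo; x marks libraries with under 50 counts in the family). NANOG copies take 60.4% to 85% in hPSC and DE footprints and 16.6% to 22% in the RNA of these stages.

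POU5F1 showed the reverse pattern across stages. Its copies took 0.1% in both hPSC RNA libraries and 1.6% and 2.9% in DE RNA, but 30.5% to 43.9% in the 4 sBC RNA libraries, where 65 to 83 counts per library lay on POU5F1 itself. The copy POU5F1B lay between 0.677 and 1.17 CPM in all 8 RNA libraries, from hPSC to sBC. FOXD3 overlaps the antisense gene FOXD3-AS1, and whether counting used strand is not given in the sources used here. FOXD3-AS1 stood at 75.3 and 79.5 CPM in hPSC RNA and at 0.772 and 0.746 CPM in DE, and at 64.8 and 63.0 CPM in hPSC Ribo. SOX2 lies within SOX2-OT, which fell from 6.93 and 6.68 CPM to 0.196 and 0.131 CPM in DE RNA (-5.31 ± 0.20).

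In GFP+ sBC all 10 genes were lower than in hPSC in RNA, where 61.3% of 23321 genes passed (30.9% lower). In GFP- sBC all 10 were lower as well, where 59.5% passed (28.3% lower). The comparisons share the hPSC libraries. In every comparison of sBC with hPSC or DE the labelled genotype changes along with the stage, so their parts cannot be told apart. The genes differed widely in what was left: 9.84% of the hPSC level of LIN28B in GFP+ sBC, 1.33% of SOX2, 0.665% of PRDM14, 0.331% of NANOG, 0.260% of DPPA4, 0.186% of LIN28A, 0.110% of POU5F1 and 0.0351% of TDGF1.

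**Figure D4:**
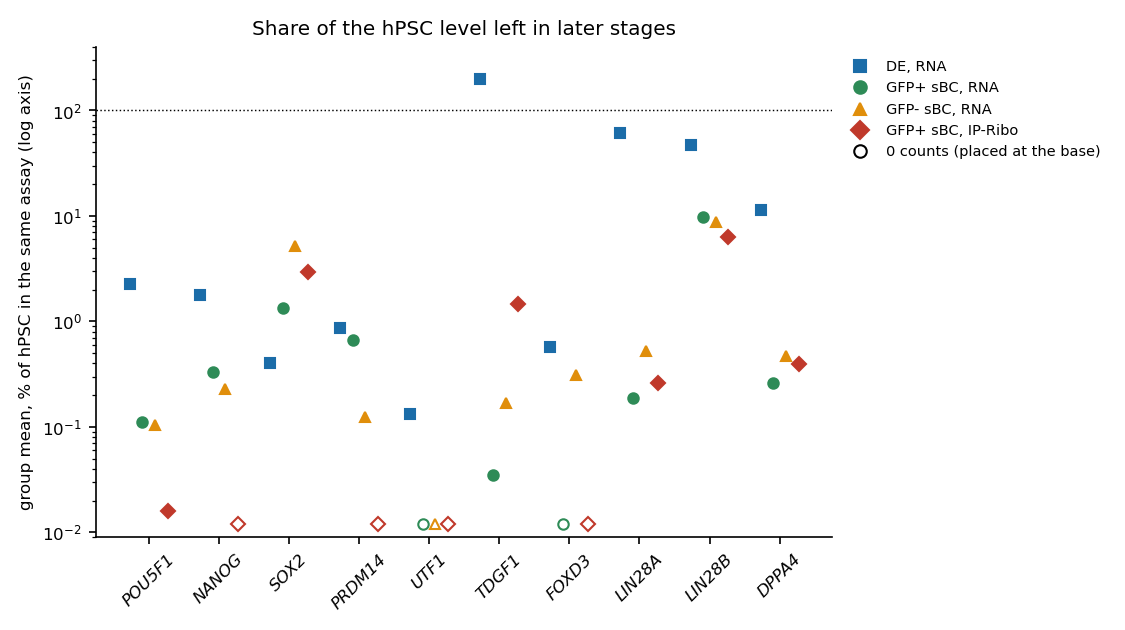
Mean level of each gene in DE RNA, GFP+ sBC RNA, GFP- sBC RNA and GFP+ sBC IP-Ribo as a percentage of the hPSC mean in the same assay (log axis; each point is a mean of 2 libraries; open points had 0 counts and are placed at the base; the dotted line is 100%). LIN28B keeps 9.84% and 8.67% in the sorted RNA groups, and SOX2 is the gene with more left in both of these than in DE (0.403%).

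POU5F1 was at 1.86 and 2.22 CPM in GFP+ RNA and at 1.73 and 2.17 CPM in GFP- RNA, so the sorted groups overlapped. Against DE it fell further in GFP+ sBC (-4.35 ± 0.21, adjusted p = 7.98e-06). NANOG was at 1.20 and 0.997 CPM in GFP+ and at 0.346 and 1.16 in GFP- RNA, again overlapping, with 79 and 54 counts in the groups. UTF1 had 0 counts in all 4 sBC RNA libraries, which puts its hPSC level at least 1333-fold above the GFP+ level and at least 1426-fold above the GFP- level, taking 3 counts over the 2 libraries of a group as the floor. FOXD3 had 0 counts in GFP+ RNA (at least 755-fold lower than hPSC) and 7 in GFP- RNA. PRDM14 was at 1.09 and 0.480 CPM in GFP+ and at 0.207 and 0.0881 CPM in GFP- RNA, on 56 and 12 counts, and its GFP+ level did not differ from DE beyond the spread (-0.38 ± 0.41, adjusted p = 0.443).

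TDGF1 turned from the member that rose in DE to the one with the largest fall between DE and sBC. From 501 and 579 CPM in DE it went to 0.0573 and 0.133 CPM in GFP+ sBC (-12.42 ± 0.39, adjusted p = 4.33e-06) and 0.362 and 0.558 CPM in GFP- sBC (-10.20 ± 0.34, adjusted p = 5.52e-06). LIN28A fell from DE to 7.40 and 7.54 CPM in GFP+ sBC (-8.37 ± 0.42, adjusted p = 9.88e-06), and to 28.1 and 13.5 CPM in GFP- sBC (-6.89 ± 0.40, adjusted p = 1.98e-05). LIN28B parted from LIN28A: it was at 35.0 and 31.1 CPM in GFP+ and at 21.8 and 36.3 CPM in GFP- RNA (GFP+ against DE -2.27 ± 0.26, adjusted p = 0.000268). The 2 paralogs act on the same microRNAs. DPPA4 was at 3.67 and 2.39 CPM in GFP+ and at 6.93 and 4.06 CPM in GFP- RNA (GFP+ against DE -5.43 ± 0.35, adjusted p = 2.14e-05).

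SOX2 was the 1 member of the 10 that was higher in sBC than in DE. The other 9 divided into 8 lower and 1 that did not pass in each sorted group (PRDM14 in GFP+, FOXD3 in GFP-). Of all genes 60.7% passed for GFP+ (29.9% higher, 30.9% lower) and 58.5% for GFP- (30.4% higher, 28.1% lower). Among the lower, UTF1 had 0 counts against 11 in DE, which bounds its fall at only 1.74-fold or more in GFP+ and 1.86-fold in GFP-. FOXD3 in GFP+ had 0 against 27 counts (at least 4.26-fold lower). SOX2 RNA was at 6.48 and 5.07 CPM in GFP+ sBC and at 30.2 and 14.5 CPM in GFP- sBC, all above the 2.43 and 1.06 CPM of DE. The change was 1.72 ± 0.46 in GFP+ (adjusted p = 0.0142) and 3.68 ± 0.49 in GFP- sBC (adjusted p = 0.000631). The GFP+ call was lost without the second DE library (1.23, adjusted p = 0.0794) and without the first GFP+ library (1.57, adjusted p = 0.0706). Markers of other SOX2-positive tissues were read beside it. The summed level of 8 neural progenitor markers was 8.69 to 9.15 CPM in GFP+ (SOX3 at 0), 105 to 364 CPM in GFP- and 136 to 171 CPM in DE, most of it NES in DE (132 and 165 CPM) and GFP- (88.1 and 337 CPM). The list was divided in GFP+: SOX1, POU3F2, HES5 and LHX2 had higher means there than in DE, and NES, FABP7, PAX3 and SOX3 lower means. In GFP- all 8 had higher means than in DE, though the libraries of NES, FABP7, PAX3 and SOX3 overlapped. SOX1 was at 2.18 and 3.49 CPM in GFP+, at 4.0 and 4.7 CPM in GFP- and at 0.0393 and 0.340 CPM in DE. POU3F2 had a mean of 1.62 CPM in GFP+, 1.55 in GFP- and 0.497 in DE. FABP7 had a mean of 0.743 CPM in GFP+, 3.63 in GFP- and 2.81 in DE. The sum of 6 foregut and stomach markers was 126 to 148 CPM in GFP+, 224 to 226 CPM in GFP- and 13.0 to 15.3 CPM in DE. CLDN18 made up most of it in sBC (means of 134 and 204 CPM), whereas GATA5 made up most of it in DE (11.8 CPM) and was at 0.344 CPM in GFP+ and 1.18 CPM in GFP-. MUC5AC stayed low in all 3 groups, at 0.447 CPM or less, and GKN1 was at 0. Their part in the SOX2 level was not tested.

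Between GFP+ and GFP- sBC none of the 8 members that could be tested passed, where 2.43% of 19797 genes passed. UTF1 and FOXD3 had too few counts to enter. An unadjusted p was under 0.05 for 4 of the 8, as for 12.1% of all genes. The log2 fold changes of these 4, none past the threshold, were -1.96 ± 0.46 for SOX2 (adjusted p = 0.0822), -1.48 ± 0.45 for LIN28A (adjusted p = 0.172), -2.23 ± 0.85 for TDGF1 (adjusted p = 0.317) and 2.35 ± 0.82 for PRDM14 (adjusted p = 0.256). For these 4 the libraries of the sorted groups did not overlap. DPPA4, which is not among them, did not overlap either (3.67 and 2.39 CPM in GFP+, 6.93 and 4.06 CPM in GFP-). How many of all genes do so was not counted, so this sets no gene apart. DESeq2 called 2 of the 8, SOX2 (adjusted p = 0.00153) and LIN28A (adjusted p = 0.0323). It called 1263 of all genes here, against 481 with edgeR. Proliferation markers moved with them, at a summed 15.2 to 17.9 CPM in GFP+ and at least 71.1 CPM in GFP- RNA (5 of 5 with counts), and their part was not tested.

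Footprints of GFP+ sBC were sparse for all 10 genes. All 10 were lower than in hPSC IP-Ribo, where 58.9% of 16018 genes passed (28.5% lower). NANOG, PRDM14, UTF1 and FOXD3 had 0 counts in both libraries, which puts NANOG at least 493-fold, PRDM14 at least 328-fold, UTF1 at least 86.9-fold and FOXD3 at least 28.6-fold lower than in hPSC. POU5F1 had 0 and 4 counts. LIN28B kept the largest share, at 3.46 and 2.17 CPM or 6.32% of hPSC, as it did in RNA. SOX2 was at 3.02 and 0.691 CPM, which overlaps with DE IP-Ribo (1.28 ± 0.66, adjusted p = 0.146), and in that comparison 7 of the 10 were lower and 52.6% of genes passed (24.8% lower). As given above, these 2 libraries also held CFTR and NES at levels that GFP+ RNA lacks, and their part in the members' footprints was not tested.

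Against hPSC, the change of TE in GFP+ sBC passed for 2 of the 10, where 15% of 22210 genes passed (11% higher, 3.98% lower). The labelled genotype differs between the sBC RNA and sBC IP-Ribo libraries, so stage is not the only thing that changes here. TDGF1 was higher (5.03 ± 0.76, adjusted p = 0.00161), on 2 and 5 counts in GFP+ RNA and 10 and 2 counts in GFP+ IP-Ribo. POU5F1 was lower (-3.00 ± 0.69, adjusted p = 0.0153), on 0 and 4 counts in IP-Ribo. With RLE size factors the calls over all genes went from 2443 higher and 884 lower to 2179 higher and 1305 lower, and the median of all genes from 0.07 to -0.06. Without the first GFP+ IP-Ribo library TDGF1 stood at 3.18 (adjusted p = 0.124), and without the second GFP+ RNA library POU5F1 stood at -2.88 (adjusted p = 0.0505). LIN28B did not pass (-0.89 ± 0.30, adjusted p = 0.0748) but did with DESeq2 (-1.03, adjusted p = 0.00425), which called 5214 of all genes. NANOG and PRDM14, lower on 0 counts in GFP+ IP-Ribo, lay just above the threshold (adjusted p = 0.0537 and 0.0562), and their estimates have no usable size. UTF1 and FOXD3 had 0 counts in GFP+ sBC in both assays and cannot be judged. With RLE size factors, no filter or DESeq2, 1 member was higher and 4 were lower. LIN28A and DPPA4 stood at 0.25 ± 0.26 and 0.37 ± 0.36.

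The wider network held genes that rose and genes that fell. Its counts are to be read beside the shares of all genes given above: 36.8% lower and 38.7% higher in DE, and 30.9% lower and 30.4% higher in GFP+ sBC. Of 20 other transcription factors and chromatin regulators of pluripotent cells, 13 were lower and 7 higher in DE RNA than in hPSC. The 3 with the largest falls were POU3F1 (-5.99 ± 0.16), a POU factor of the epiblast, DPPA2 (-3.49 ± 0.13), the partner of DPPA4, and the DNA methyltransferase DNMT3B (-3.42 ± 0.06). The 3 with the largest rises were TBX3 (5.97 ± 0.18), KLF5 (4.49 ± 0.09) and OTX2 (3.49 ± 0.11), each also known as a factor of other tissues. SALL4 rose (0.69 ± 0.05), whereas ZFP42 fell (-1.21 ± 0.05). In GFP+ sBC 16 of these 20 were lower than in hPSC and 2 higher, again TBX3 (2.85 ± 0.48) and KLF5 (4.34 ± 0.42). Telomerase (TERT) and DPPA2 had 0 counts there, at least 351-fold and 313-fold lower than in hPSC, and ZSCAN10 had 3 counts (ratio 4564, 95% counting interval 1561 to 22132). DNMT3B went from 3017 ± 192 CPM (SD, n = 2) in hPSC over 271 ± 12.4 in DE to 1.61 ± 0.21 in GFP+ sBC. The median log2 fold change of this list was -1.03 in DE and -4.34 in GFP+ sBC, next to 0.01 and 0.04 over all genes.

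The next list held transcripts and proteins that mark the primed state of human pluripotent cells. Of 16, 13 were lower and 2 higher in DE, with a median of -2.0. The lncRNAs LNCPRESS1 (-5.00 ± 0.09) and LNCPRESS2 (-4.86 ± 0.20) were among them. DPPA5 had 0 counts in DE RNA, at least 233-fold lower than in hPSC. The telomere protein TERF1 fell (-3.40 ± 0.05), as did the RNA-binding L1TD1 (-1.62 ± 0.05). The 2 that were higher, PODXL (1.26 ± 0.05) and EPCAM (0.81 ± 0.05), are surface glycoproteins that many epithelia also carry. In GFP+ sBC 14 were lower, and the epithelial adhesion molecules CDH1 (3.87 ± 0.28) and EPCAM (2.22 ± 0.20) were higher. LNCPRESS2 and DPPA5 had 0 counts there (at least 173-fold and 111-fold lower), and LNCPRESS1 had 1 (ratio 3251, 95% counting interval 583 to 128414). That change of CDH1 is opposite in sign to the one in DE (-1.40 ± 0.09).

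The partners of TDGF1 in Nodal signalling mostly rose with it in DE. Of 13, 9 were higher and 3 lower, with a median of 0.70. The Nodal inhibitors LEFTY2 (6.52 ± 0.08) and LEFTY1 (4.78 ± 0.12) and the ligand NODAL (2.46 ± 0.05) led, and the ligand GDF3 (-1.33 ± 0.16), the receptor ACVR1C (-0.99 ± 0.24) and SMAD3 (-0.17 ± 0.06) were lower. NODAL was at 27.3 and 27.4 CPM in hPSC and at 144 and 148 CPM in DE. In GFP+ sBC RNA it had 0 counts (at least 660-fold lower than hPSC). GDF3 (-10.40 ± 1.08) and the Nodal effector FOXH1 (-8.12 ± 0.34) fell as well. In all, 9 of the 13 were lower and 3 higher, the receptors ACVR1C (8.81 ± 0.39), ACVR1B (2.59 ± 0.22) and ACVR2A (1.39 ± 0.35). In IP-Ribo of DE against hPSC, footprints of LEFTY2 (7.49 ± 0.48), LEFTY1 (6.85 ± 0.67) and NODAL (2.64 ± 0.35) were higher. These were 3 of the 13, where 22.3% of all genes passed. In GFP+ sBC IP-Ribo NODAL had 0 counts, at least 38.9-fold lower than in hPSC.

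**Figure D5:**
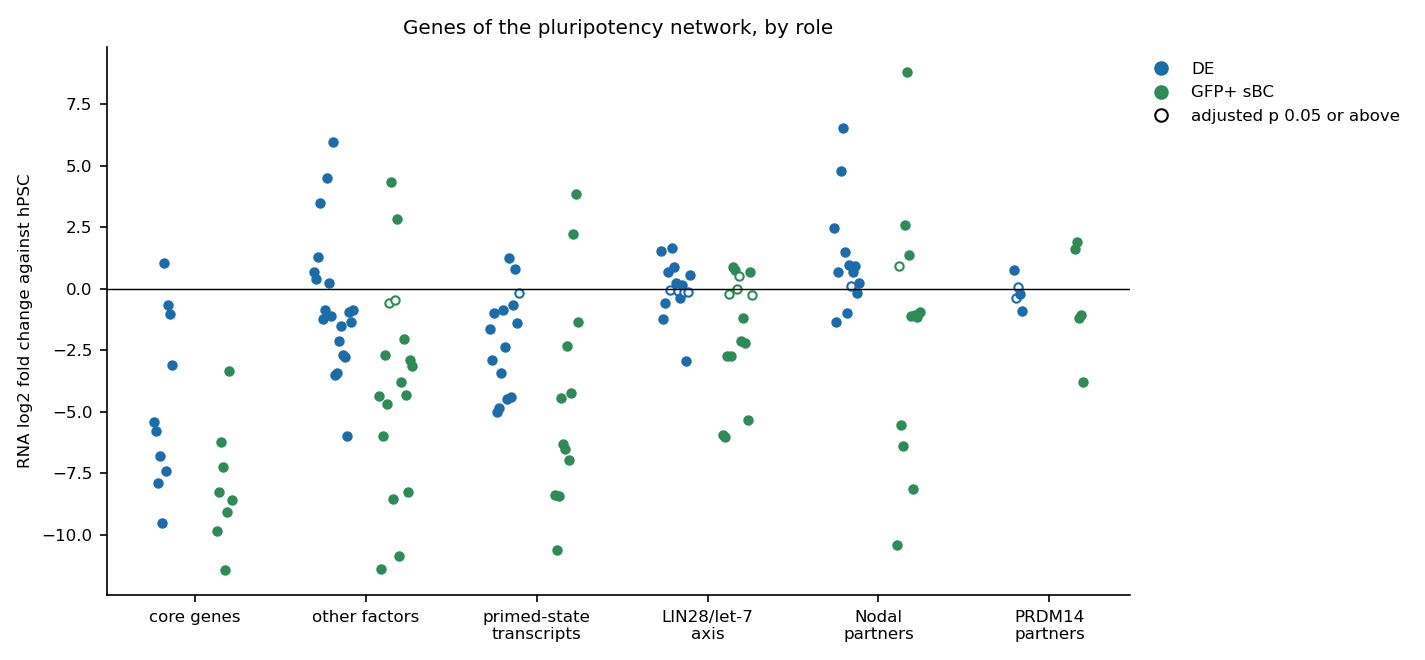
RNA log2 fold change against hPSC of the 10 core genes and of 5 lists of other genes of the network, in DE (blue) and GFP+ sBC (green). Each point is a gene, open where the adjusted p was 0.05 or above, and genes with 3 or fewer counts in the lower group are left out. In DE the Nodal partners lie mostly above 0 (9 of 13 higher), and in GFP+ sBC mostly below (9 of 13 lower).

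Of 15 genes of the let-7 axis around LIN28, 7 were higher and 4 lower in DE, close to the 75.6% of all genes that passed, and their median of -0.04 was close to the 0.01 of all genes. TUT4, which tails let-7 precursors together with LIN28A, rose (1.66 ± 0.05), as did the let-7 target HMGA2 (1.55 ± 0.09) and TUT7 (0.87 ± 0.06). MYC (-2.92 ± 0.08), HMGA1 (-1.21 ± 0.04) and IGF2BP1 (-0.57 ± 0.05) fell. In GFP+ sBC 8 were lower and 3 higher. HMGA1 (-6.00 ± 0.31), HMGA2 (-5.93 ± 0.29) and MYC (-5.32 ± 0.57) had the largest falls, IGF2BP1 fell (-2.74 ± 0.17), and TUT4 (0.90 ± 0.24), TUT7 (0.75 ± 0.22) and IGF1R (0.68 ± 0.25) were higher. HMGA2 differed between the sorted groups (-3.44 ± 0.41), at 3.65 and 5.12 CPM in GFP+ and 40.6 and 54.5 CPM in GFP- RNA. Of the 5 partners of PRDM14, the co-repressor CBFA2T2 was higher in DE (0.75 ± 0.06) and in GFP+ sBC (1.60 ± 0.18). EZH2, the methyltransferase of the Polycomb complex, was lower in both (-0.92 ± 0.06 and -3.79 ± 0.23), as was SUZ12 (-0.19 ± 0.05 and -1.07 ± 0.33). CBFA2T3 (1.91 ± 0.40) was higher and EED (-1.19 ± 0.19) lower in GFP+ sBC. The counts were 1 higher and 2 lower in DE and 2 higher and 3 lower in GFP+ sBC.

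Patterns over the 9 group means were compared as the root mean square difference of log2(CPM + 0.5) after each gene's own mean was taken out, among 15293 genes with at least 5 CPM in a group. The groups share libraries of 1 assay and stage, so this is a description. The added 0.5 flattens differences near 0 CPM, so genes of low level, such as UTF1 and FOXD3, can lie close through it. Among the members, UTF1 and FOXD3 (0.61), NANOG and PRDM14 (0.63) and PRDM14 and UTF1 (0.66) were closest, and SOX2 and TDGF1 (4.30) were farthest apart. The genes nearest to POU5F1 were DNMT3B (0.90), CRABP1 (1.26) and NANOG (1.32). Those nearest to NANOG were PRDM14 (0.63), LNCPRESS1 (0.76) and USP44 (0.79). SOX2 had SFRP2 (0.85), CAMKV (0.97) and HLA-DPB2 (1.15), and UTF1 had HES3 (0.34), HLA-DPB2 (0.37) and HPAT5 (0.40). LIN28A lay nearest to RBPMS2 (0.75), ZIC2 (0.80) and VRTN (0.87), and LIN28B to TRIM59 (0.34), CDK2AP1 (0.37) and PDZD4 (0.39). LIN28A and LIN28B differed from each other by 2.34.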

How the data were processed

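The authors deposited 1 table of estimated counts (expected counts) per gene, on GRCh38 per the submitters' processing notes, which also name cutadapt, UMI-tools, Bowtie, Salmon and DESeq2 but give neither versions nor roles. The annotation and the use of strand are not given in the sources used here. Of the values, 16.8% to 31.3% per library were not whole numbers, and all were rounded before testing. Of the identifiers, 98.7% matched a symbol table. Counts were tested with edgeR 4.0.16 in R 4.3.3 (filterByExpr, TMM, robust quasi-likelihood F test, Benjamini-Hochberg over all genes tested, threshold 0.05), and standard errors come from those fits. DE against hPSC in RNA, Ribo and the sort used 4 libraries, the sBC RNA comparisons 8, IP-Ribo 6, IP-Ribo against Ribo 8, TE 12 with IP-Ribo and 8 with Ribo. In all, 15 comparisons were made. The fits were tested on simulated data. Genes at 0 in a group are given as bounds against 3 counts over its 2 libraries, which cover counting error only. Alternatives were RLE size factors, no filter, a stricter filter (at least 1 CPM with 10 counts), protein-coding genes only, DESeq2 1.42.0, the replicate number as a block, each library left out, a fit of all 8 RNA libraries and, chosen after seeing the data, copies added to the member and a block with exchanged numbers. The text names all 10 members, from each list the 3 largest and 3 smallest changes past the threshold in RNA of DE and GFP+ sBC, a fixed set of further genes with their copies, and the 3 nearest patterns. CFTR, NES, SOX1, POU3F2, HES5, LHX2, FABP7, PAX3, SOX3, CLDN18, GATA5, MUC5AC, SOX17, INS, GCG and CHGA were named from the marker lists after their values were seen. Neural crest and germ cell markers were summed too: 79.4 to 124 CPM and 19.7 to 22.6 CPM in GFP+ RNA, 91.9 to 92.9 CPM and 36.8 to 41.9 CPM in hPSC RNA. The members and lists were chosen with earlier results of these data known. Levels were not compared between genes, since no transcript lengths were used.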

Additional observations from a re-analysis of the deposited data

Results flagged for a closer look

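For 2 members, the change from hPSC to GFP+ sBC differed between RNA and footprints by the test of the difference itself. The labelled genotype changes along with stage and assay in it, so these cannot be told apart. The change of translational efficiency in GFP+ sBC against hPSC was -3.00 for POU5F1 and 5.03 for TDGF1 on the log2 scale, by edgeR's interaction test, on the few counts given above. This test called 15% of all genes. Each call was lost without 1 library: TDGF1 had an adjusted p of 0.124 without the first GFP+ IP-Ribo library, and POU5F1 0.0505 without the second GFP+ RNA library. No cause was tested.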

How the results depend on the processing

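Of the values of single members under the alternatives, 1305 kept direction and side of the threshold, 23 gained a call, 23 lost one and 30 changed sign. Members with 3 or fewer counts in a group compared were left out of this tally for that comparison, and these are among the least stable values. Members passing between GFP+ and GFP- sBC were 2 with no filter, DESeq2 or all 8 RNA libraries, 1 with the replicate block and 0 to 3 leaving out a library. Ribo DE against hPSC gave 2 to 9 when a library was left out. IP-Ribo against Ribo in hPSC gave 2 with no filter and 1 with DESeq2, and in DE 1 with either. The TE change with IP-Ribo gave 0 to 1 leaving out a library in DE, and in GFP+ sBC 5 with RLE, no filter or DESeq2. The causes were not tested.

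Among the values in this tally, signs changed only where the main fit had not passed. Leaving out a library gave, for GFP+ against DE, PRDM14 -1.04 to 0.12; for the sort, POU5F1 -0.12 to 0.25, NANOG -0.10 to 1.66 and LIN28B -0.17 to 0.60; for IP-Ribo GFP+ against DE, SOX2 -0.17 to 1.83. In IP-Ribo against Ribo it gave POU5F1 -0.09 to 0.31, PRDM14 -0.13 to 0.28, FOXD3 -0.13 to 0.45 and DPPA4 -0.16 to 0.03 in hPSC, and NANOG -0.41 to 0.08 (0.30 with copies added), SOX2 -0.71 to 1.53, PRDM14 -0.18 to 2.59 and LIN28A -0.35 to 0.12 in DE. For TE it gave TDGF1 -0.62 to 0.00 (0.10 with copies added) in DE with IP-Ribo, SOX2 -0.78 to 1.33, LIN28A -0.18 to 0.32 and DPPA4 -0.18 to 0.71 in GFP+ sBC, and SOX2 -0.26 to 2.03, PRDM14 -1.15 to 1.61, TDGF1 -0.46 to 0.10, LIN28B -0.11 to 0.39 and DPPA4 -0.27 to 0.30 in DE with Ribo.

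Replicate numbers were not taken as pairs: the correlation of deviations between groups ran from -0.14 to 0.12. With the replicate block, all-gene calls went from 481 to 1258 in the sort, from 37 to 22 for TE in DE with IP-Ribo and from 68 to 4 with Ribo, and Ribo DE against hPSC kept 7 members of 9. The calls lost there were TDGF1 (0.76, adjusted p = 0.0765) and PRDM14 (-6.21, adjusted p = 0.101), and the call gained in the sort was SOX2 (-1.88, adjusted p = 0.0074). No other member's call changed with the block. Since hPSC and DE IP-Ribo gave the correlation of -0.14, their block was also run with the DE numbers exchanged, chosen after seeing the data: 9 members and 3642 genes passed, against 2530 genes with the numbers as given and 3573 with no block. The TE median over all genes in DE with Ribo moved from 0.14 to 0.03 with RLE.

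Calls over all genes moved by over 1.5 times as follows. RNA DE against hPSC went from 15591 to 6561 in the fit of 8 libraries. GFP- sBC against DE went from 13644 to 8919 and 8939 without a DE library. The sort went from 481 to 1596 with no filter, 1263 with DESeq2 and with all 8 libraries, and 779 and 7815 without a GFP- library. IP-Ribo DE against hPSC went from 3573 to as few as 1097, and Ribo from 5276 to 73, leaving out a library. IP-Ribo against Ribo went from 192 to 958 with no filter, 735 with DESeq2 and 18 at fewest without a library in hPSC, and from 144 to 1526, 1035, and 36 to 332 in DE. TE with IP-Ribo in DE went from 37 to 69 with no filter, 752 with DESeq2, 18 with protein-coding genes, and 1 to 1730 without a library. In GFP+ sBC it went from 3327 to 5214 with DESeq2 and 1748 at fewest. TE with Ribo went from 68 to 44 with RLE, 191 with no filter, 1434 with DESeq2, 187 with protein-coding genes, and 0 to 3906 without a library.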
